A study of Mus musculus with 2 samples.

Results

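The Cd79b locus was examined in a map of EBF1 binding in mature splenic B cells. It was defined by position as the 250 kb window on chromosome 11 from 106.05 to 106.30 Mb in the mm8 mouse build. The window held 3 of the 7424 EBF1 peaks in the authors' list, and 3 of the 664 on chromosome 11. The data were 1 EBF1 chromatin immunoprecipitation sequencing (ChIP-seq) library and 1 input library, the input being sheared chromatin DNA without enrichment. Both came from spleens of adult C57BL/6 mice, with no treatment or altered gene named in the labels. Cells were depleted of those stained for CD43, AA4.1, CD4, CD8 or CD9. Per the labels about 97% of the remainder were B220 positive, and 92% of those had the CD23 and CD21 surface levels of follicular B cells. These percentages are the check of cell type, since ChIP reads do not measure marker expression. Binding in all cells at a modest level and binding in some cells at a high level cannot be told apart in such bulk material.

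Cd79b encodes Ig-beta, which pairs with Ig-alpha, the product of Cd79a, to form the signalling part of the B cell receptor. The receptor reaches the cell surface and signals only with this pair, and both genes are active through most of B cell life. EBF1 is a transcription factor that binds a palindromic DNA sequence as a dimer and is required to form the B lineage, and Cd79a and Cd79b are among its textbook targets. In the RefSeq gene table of the later GRCm38.p6 build, Cd79b lies between Gh, the growth hormone gene, and Scn4a, a sodium channel gene of skeletal muscle. Beyond these follow Tcam1, Smarcd2 and Psmc5 on the Gh side, and Prr29, Icam2 and Ern1 on the Scn4a side. That table served for names and order only, and no peak was assigned to a gene. When the window was set, Cd79b was taken to lie about 120 kb from its start. This position was not checked against an mm8 annotation and may be off, so distances to it below are not distances to the gene.

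The clearest EBF1 ChIP signal in the window lay in a pair of sharp peaks, with a weaker peak on one side of them. The strongest by the authors' score scored 23.3 and spanned positions 106124391 to 106124540. Counting gave 60 ChIP reads and 1 input read, that is, a ChIP to input ratio of 56.8 after scaling to library size, with a 95% interval of 9.81 to 2280. Its high ratio rested on that single input read. When the 5′ ends of reads were moved towards the 3′ end by 50 bp in place of 100 bp, the ratio was 16.8 (6.28 to 63.3), and with no move it was 12.1 (4.44 to 46.0). All intervals cover counting error only.

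The next peak scored 18.5 and lay 6.25 kb away, spanning 106130641 to 106130790. Here 66 ChIP reads stood against 4 in the input, and the ratio was 15.6 (5.82 to 59.0). The peak with the higher score thus held fewer ChIP reads, and the overlapping intervals do not order the pair by ratio. Among chromosome 11 peaks they stood at places 26 and 43 by score, and at places 52 and 46 by ChIP reads. ChIP reads filled 20% and 22% of the 300 positions a peak offers over both strands, so the counts were far from that cap. In the whole list their places by score were 339 and 544, and by ChIP reads 352 and 286. For comparison, the median listed peak had a score of 6.07 and 12 ChIP reads.

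The third peak scored 8.45 and spanned 106088801 to 106088950. Its ChIP count was 12, and the input had 0 reads there. Against a floor of 3 input counts it was at least 3.79-fold above input, a bound that ignores the sampling error of the 12 ChIP reads. The lower end of its exact interval, in which that error is included, was 2.63. It stood at place 162 by score on chromosome 11 and at place 1818 in the whole list. Its ChIP count was the same as that of the median listed peak.

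All 3 peaks had an interval above 1, as did 86.6% of the listed peaks, and an interval above 2, as did 38.3%. The peaks were called from the same reads, so neither count is a check of binding. At the third peak the lower end was 1.51 with reads not moved and 1.85 with a move of 50 bp, so its call above 2 was lost under both. Together the 3 peaks took 138 of the window's 3754 ChIP reads (3.68%) and 5 of its 2721 input reads (0.184%). Per 1 kb bin the median was 14 ChIP and 10.5 input reads in the window. In bins of chromosome 11 with an input read, the medians were 11 and 9.

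**Figure D1:**
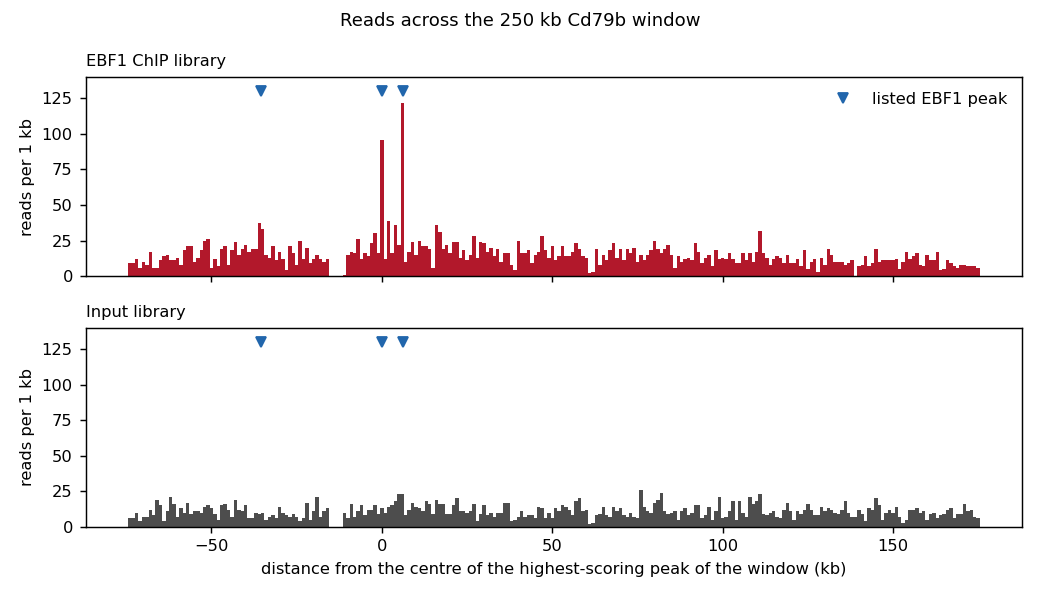
Reads per 1 kb bin (y axis) across the 250 kb window in the EBF1 ChIP library (top) and the input library (bottom), by distance in kb from the centre of the highest-scoring peak, with triangles at the 3 listed peaks. The 2 tallest ChIP bins, with 122 and 96 reads, hold the pair of strong peaks, while no input bin exceeds 26 reads.

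The bin from 106130001 to 106131000 had 122 ChIP and 23 input reads (ratio 5.02, 3.20 to 8.22), and the bin from 106124001 to 106125000 had 96 and 13 (ratio 6.99, 3.90 to 13.6). A bin was called enriched from 20 ChIP reads upward when its scaled ratio also reached 5. By that rule 3 of the window's 246 bins with a read were enriched (1.22%), against 0.279% of such bins on chromosome 11. With ChIP and input exchanged, the rule was met by 0 bins of the window and by 0.0129% of those on the chromosome. The third enriched bin, from 106100001 to 106101000, touched no listed peak and had 25 ChIP and 4 input reads (ratio 5.92, 2.04 to 23.4). Among bins touching no peak this was 1 of 243 (0.412%), against 0.149% on chromosome 11, and a single bin shows no difference from that share.

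Other ChIP-rich bins outside the peaks had lower ratios. Those with the most ChIP reads started at 106126001, with counts of 39 (ChIP) and 14 (input) (ratio 2.64, 1.40 to 5.26), and at 106128001, with 36 and 18 (ratio 1.89, 1.05 to 3.54). Both lie between the strong peaks. Further bins started at 106140001, with 36 and 19 reads (ratio 1.79), at 106089001, beside the weaker peak, with 33 and 10 (ratio 3.12), and at 106235001, with 32 and 23 (ratio 1.32, 0.747 to 2.36). The last of these did not stand above input beyond counting error. From 106125041 to 106130140, between the strong peaks and at least 500 bp from each, the ratio was 1.45 (1.09 to 1.95). This interval overlapped that of the whole window outside peaks, given below.

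The strong peaks had the strand pattern of a short bound site, with forward reads to the left and reverse reads to the right of the centre. The peaks and their centres were called from the same reads, so this pattern is not a separate check of binding. At the peak with score 23.3, 36 of 37 forward 5′ ends within 200 bp lay left of the centre and 38 of 45 reverse 5′ ends lay right of it. The medians were -73 bp and 56 bp, a distance of 129 bp between strands. At the peak with score 18.5, 50 of 54 forward ends lay left and 37 of 46 reverse ends lay right, and the distance was 138.5 bp. Over 123 other chromosome 11 peaks with a score of at least 10 and at least 10 reads on each strand, the median distance was 110 bp, with quartiles of 96.8 and 121 bp. Of these, 18 exceeded the first distance and 4 the second (3.25%). The pair thus lay in the upper part of that range.

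The weaker peak was less sharply shaped. Of its 17 forward ends 11 lay left of the centre, and of its 9 reverse ends 8 lay right. Input reads within 200 bp numbered 1 at this peak, 8 at the peak with score 23.3 and 10 at the peak with score 18.5, too few for a strand pattern.

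**Figure D2:**
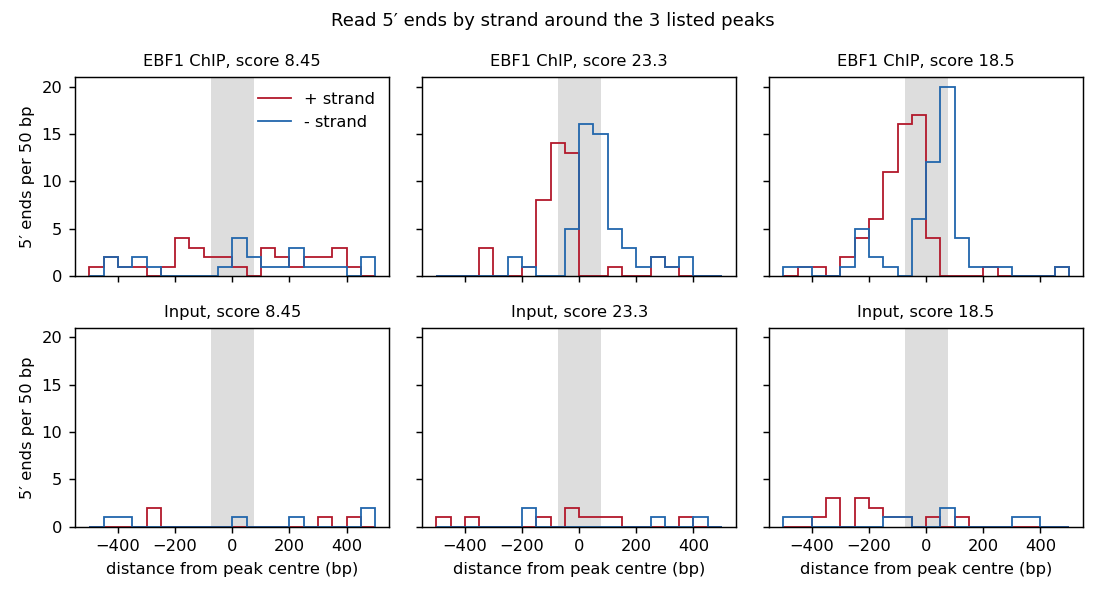
Read 5′ ends per 50 bp (y axis) on the forward strand (red) and reverse strand (blue) by distance in bp from each peak's centre, in the ChIP library (top) and the input (bottom), with reads not moved and the 150 bp peak in grey. The peaks with scores 23.3 and 18.5 reach 16 and 20 ends per step with the strands on opposite sides, and the peak with score 8.45 stays at 4 or below.

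Around the pair the ChIP to input ratio was highest next to the centres. Within 250 bp of the centre of the peak with score 23.3, 88 ChIP reads against 7 in the input gave a ratio of 11.9 (5.54 to 30.5). From 250 to 500 bp there were 8 and 6 reads, a ratio of 1.26 (0.384 to 4.41). Further out its intervals lay above 1, with 3.22 (1.14 to 11.2) from 500 to 1000 bp, 1.89 (1.10 to 3.37) from 1000 to 2000 bp and 1.45 (1.11 to 1.91) from 2000 to 5000 bp. At the peak with score 18.5 the ratio was 5.90 (3.52 to 10.5) within 250 bp and 4.42 (1.23 to 24.0) from 250 to 500 bp. It was 1.24 (0.618 to 2.55) from 500 to 1000 bp, 0.918 (0.546 to 1.54) from 1000 to 2000 bp and 1.56 (1.19 to 2.06) from 2000 to 5000 bp. Between the peaks the rings from 2000 to 5000 bp overlap, so their ratios share reads and are not separate results. The surrounding 50 kb block, described below, had a ratio of 1.35 (1.19 to 1.53) away from peaks. Outer rings above 1 therefore say little about the peaks themselves.

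Around the weaker peak the ChIP reads were spread more widely. There were 31 ChIP and 4 input reads within 250 bp (ratio 7.33, 2.59 to 28.6) and 26 and 4 from 250 to 500 bp (ratio 6.15, 2.13 to 24.3). From 500 to 1000 bp the ratio was 1.10 (0.474 to 2.61), and beyond that 2.43 (1.28 to 4.88) to 2000 bp and 1.97 (1.39 to 2.83) to 5000 bp. The counts of both libraries thus differed little between the inner rings. Beyond 1000 bp the intervals lay above 1, but they overlapped the interval from 500 to 1000 bp, so no dip and return is shown.

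Close spacing of strong peaks also occurred elsewhere on the chromosome. Of 126 chromosome 11 peaks with a score of at least 10, 24 (19.05%) had another such peak within 10 kb, the strong pair of this window included. The nearest listed peak outside the window lay 3.42 kb beyond its far end, spanning 106303341 to 106303490. It scored 6.19, and its counts were 9 in the ChIP library and 0 in the input. The next scored 7.34, spanned 106360361 to 106360510 and had counts of 23 and 3.

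No listed peak lay within 25 kb of the stated position of Cd79b, 120 kb into the window. The nearest, with score 18.5, was 39.3 kb away, and the others were 45.5 and 81.1 kb away. The stated position may be that of a later build, and the gene may then lie elsewhere in the window, possibly at the strong pair, so these values do not measure binding at Cd79b. In the 20 bins within 10 kb of the position, ChIP reads ran from 4 to 28 per bin with a median of 16, and input reads from 4 to 17 with a median of 10.5. The 2 ranges overlapped, and 0 of the 20 bins were enriched by the rule above. Summed, their counts were 314 in the ChIP library and 204 in the input, for a ratio of 1.46 (1.22 to 1.75). ChIP reads there were thus above input as a whole. In the 10 bins within 5 kb of the position the counts were 171 and 89, and the ratio was 1.82 (1.40 to 2.38). In the 50 bins within 25 kb it was 1.44 (1.29 to 1.61). Both intervals lay above that of the window outside peaks given below, although that window takes in these bins. They overlapped the interval of the 50 kb block that holds the position, also given below.

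Away from the peaks the ChIP library was also above input in the window as a whole, though not in every part of it. In bins at least 2 kb from any peak 3231 ChIP reads stood against 2536 in the input, and the ratio was 1.21 (1.14 to 1.27). Of 231 such bins with a read, 154 (66.7%) had more ChIP than input reads after scaling, against 53.4% on chromosome 11. By blocks of 50 kb, chosen after the data had been seen, the ratio was 1.24 (1.10 to 1.40) in the first, with the weaker peak, and 1.35 (1.19 to 1.53) in the second, with the strong pair. It was 1.495 (1.335 to 1.676) in the third, from 106150001 to 106200000, which holds the stated position and 0 peaks. The fourth and the fifth blocks had 1.07 (0.959 to 1.20) and 0.924 (0.815 to 1.05), with intervals that did not overlap that of the third.

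Input density was 10.6, 11.03, 10, 12.2 and 10.2 reads per kb in the 5 blocks, lowest in the third, and its part in the ratios was not tested. Set against 2368 blocks of chromosome 11, whose quartiles were 0.896 and 1.24 around a median of 1.05, the third block was exceeded by 116 (4.90%). The second was exceeded by 13.1%, the first by 24.5%, the fourth by 47.3% and the fifth by 70.9%. A stretch of 4 kb in the second block, from 106109001 to 106113000, held 0 reads in both libraries.

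**Figure D3:**
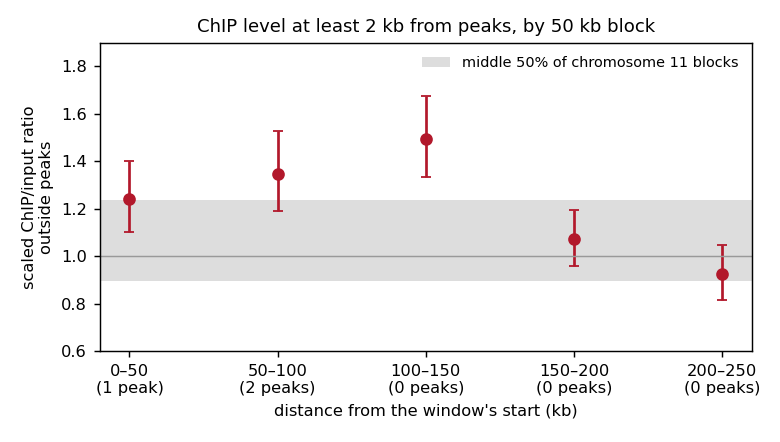
Scaled ChIP to input ratio in bins at least 2 kb from any peak (y axis) for the 5 blocks of 50 kb of the window (x axis, kb from its start, with the number of listed peaks), with bars for the exact 95% interval and a grey band for the middle 50% of 2368 chromosome 11 blocks. The ratio is highest, at 1.495, in the third block, which has 0 peaks, and is 0.924 in the last.

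The window was then placed among the 250 kb windows of chromosome 11 on the same grid, of which 474, this window included, had an input read in at least 50% of their bins. With 3 peaks it was exceeded by 62 windows (13.1%) and equalled by 38, and the median window had 0 peaks. Its strongest score, 23.3, was exceeded in 24 windows (5.06%). Of peaks with a score of at least 10 it held 2, and 11 windows (2.32%) had more, a share that leaves out windows with an equal number. Its 3 enriched bins, which include those of the strong pair, were exceeded in 20 windows (4.22%) and equalled in 14.

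By its ratio outside peaks the window stood nearer the middle, with 136 windows (28.7%) above it. The median window had a ratio of 1.06, with quartiles of 0.918 and 1.23. Among the 38 other windows with 3 peaks, the median ratio outside peaks was 1.21 and 20 were above this window. In those windows the median strongest score was 8.05 and the highest 29.8, and 2 of the 38 exceeded 23.3. The window therefore resembled windows of equal peak number in its level outside peaks, and lay near their upper end in its strongest peak. Its 2721 input reads were above the median of 2394, and 31 windows (6.54%) had more.

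The windows on either side had weaker peaks. The one before it held 2 peaks with scores up to 5.38 and a ratio outside peaks of 1.13 (1.07 to 1.19). The one after it held 5 peaks with scores up to 14.1 and a ratio of 1.23 (1.17 to 1.30), an interval that overlapped that of the Cd79b window. Further along, the windows starting at 106550001 and 106800001 held 4 peaks each. Their scores reached 18.3 and 22.5, so peaks of similar score lay nearby. On the chromosome, the windows with the most peaks started at 3050001, 118800001 and 75300001, with 17, 13 and 12 peaks. The window starting at 3050001 also had the most input reads of the 474 windows, 15742 against a median of 2394. Its peak number is therefore not a plain measure of EBF1 binding. The windows with the strongest peaks started at 51550001, 109050001 and 68300001, with scores of 114.7, 71.4 and 60.7. The Cd79b window was well below all of these leading windows in peak number or in score.

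**Figure D4:**
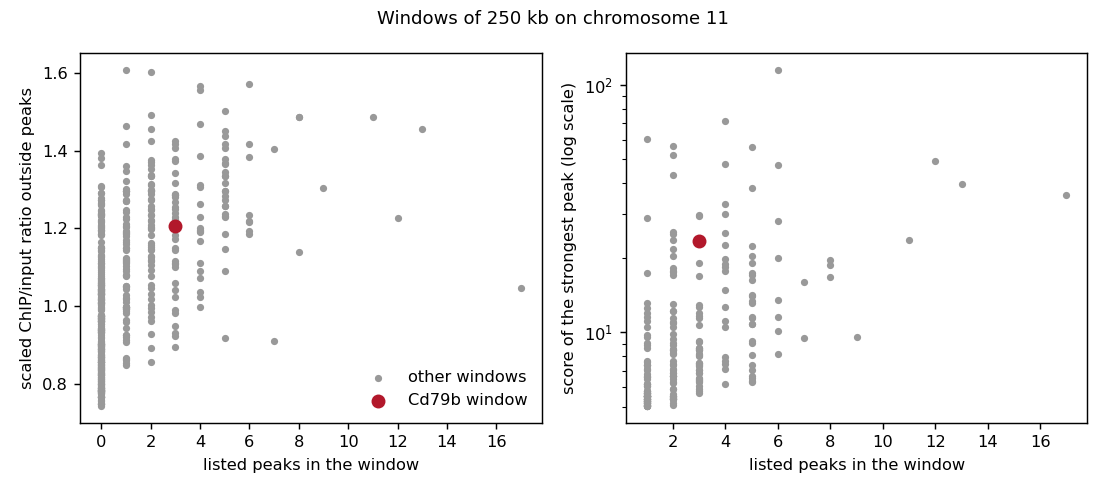
Windows of 250 kb on chromosome 11, with the number of listed peaks (x axes) against the scaled ChIP to input ratio outside peaks (left) and the authors' score of the strongest peak on a log scale (right, windows with a peak only). The Cd79b window (red) has 3 peaks, a ratio of 1.21 near the median of windows with 3 peaks, and a strongest score of 23.3 exceeded by 2 of the other 38.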

How the data were processed

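The deposited read files hold the position and strand of every aligned 35 bp read. Per the submitters' processing notes, the build is mm8 and HOMER was among the tools. The aligner and any removal of duplicates were not given in the sources used here. Every 150 bp peak of the deposited list has a score, without its scale or control. The score was used only to describe and rank peaks within the list.

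The libraries held 24354888 ChIP and 23053279 input reads, or 24337709 and 23033569 on chromosomes 1 to 19, X and Y. Read 5′ ends were moved 100 bp towards the 3′ end and counted in peaks and 1 kb bins. ChIP to input ratios were divided by 1.06, the ratio of the latter totals, with exact conditional binomial (Clopper-Pearson) 95% intervals. A floor of 3 input counts replaced 0. Intervals and the floor cover counting error only, because variation between libraries cannot be measured with 1 library per group. Reads were made by PCR without molecular identifiers, so copies could be recognised only by position. In both files 0 reads shared a strand and 5′ position with another, which caps the count of a peak at 300. Both groups consist of 1 library, so no replicate check or p-value exists. Window places are descriptions. Every peak of the window is named, as are the 5 bins with the most ChIP reads touching no peak, and the leading windows. The window and these choices were made with earlier results of these data known. The planned list of B cell receptor genes was not used, as it needed an mm8 annotation. Scripts ran in Python 3.11.15 with scipy 1.17.1, numpy 2.4.6, matplotlib 3.10.9 and pandas 2.3.3. The ratio, its interval and the rule for enriched bins were tested on simulated bin counts with planted ratios. The moving and counting of reads were not part of that test. Alternatives covered the read move, the scaling, the region counted, the score and bin limits, the distance from peaks and the grid of windows.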

Additional observations from a re-analysis of the deposited data

How the results depend on the processing

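The setting with windows of like input density (397 windows within 20% of this window's input reads) was added after seeing the data. Over 32 alternative values, 27 stayed within the 95% interval of the main value or within 1.5 times the main count, 5 did not, and 0 changed direction. For the peaks this count says little, because their intervals are wide. That of the strongest peak runs from 9.81 to 2280, and that of the third peak has no upper end. For shares of windows the count is only a description, because windows along the chromosome are not independent draws. Counting in 1 kb around the centre lowered the ratio to 6.99 (3.90 to 13.6) at the peak starting at 106124391. At the peak starting at 106130641 it fell to 5.68 (3.52 to 9.63). The ratios in the 150 bp peaks rested on 1 and 4 input reads, and the cause of the fall was not tested. Asking for a score of at least 10 put 2.32% of windows above this one in peak number, in place of 13.1%. Among windows of like input density 33.2% had a higher ratio outside peaks, in place of 28.7%, and the cause was not tested. With a ratio of at least 10 the window had 0 enriched bins. Depth limits the ratios of the 3 peaks, which rest on 0 to 4 input reads. No paired analysis was possible because there is only 1 library in either group, numbered in accession order.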
